A study of Rattus norvegicus with 8 samples.

Results

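The control cultures of this study were neonatal rat cardiomyocytes transfected with siNC, the control small interfering RNA. They make up 4 of the 8 libraries of the series, chosen by their label alone. The other 4 libraries received siECHS1 and are not compared here. The cells came from hearts of the SD (Sprague-Dawley) strain and RNA was collected 48 h after transfection. The labels give the cell type as cardiomyocytes and give neither the sequence of siNC nor the sex of the animals, and they do not say whether the 4 libraries came from separate cultures or litters. The spread between libraries reported here may therefore be technical. Levels are FPKM, fragments per kilobase of gene length per 1e+06 reads, so they are per length and can be set beside each other between genes. Values are the mean ± SD over the 4 siNC libraries unless each library is given, in the order siNC replicate 1 to 4. With 1 group there was no test of conditions, and 4 libraries are too few for an exact paired test between 2 genes to pass a threshold of 0.05. A gene was therefore called higher than another only where their ranges over the 4 libraries did not overlap. Within a family or list, the genes that led and those given as highest or lowest go by the order of the means, and their ranges may overlap those of neighbours.

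The rodent heart changes its muscle proteins and its fuel around birth. The fast myosin heavy chain Myh6 gains over the slow chain Myh7, the cardiac troponin I Tnni3 replaces the slow skeletal isoform Tnni1, and mitochondrial fatty acid oxidation takes over from glycolysis. Cells isolated from newborn hearts sit within this change and are usually accompanied in culture by fibroblasts and other non-muscle cells.

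The library totals behind the FPKM values, recovered from those values, lay between 16953309 and 18237111 reads over the 4 siNC libraries. Listed genes held 99.9% of these totals. The number of reads sequenced is not known here, so this is not the share of all reads that fell in genes. No library repeated another: counts of each pair were further apart than sampling noise allows (chi-square per degree of freedom 3.03 to 5.41). Of 21017 gene rows, 12647 (60.2%) had a mean of at least 1 FPKM, 6783 (32.3%) reached 10 FPKM, 845 (4.02%) reached 100 FPKM and 43 (0.205%) reached 1000 FPKM. Another 960 rows were listed at 0 in all 4 libraries. Echs1, the target of the study's other duplex, had 1.66, 1.35, 1.18 and 1.12 FPKM in the siNC libraries. The row LOC100911186, which carries the same protein match, had 5.75, 6.15, 7.24 and 7.31 FPKM, and the rule by which reads were divided between these rows is not known here.

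The most abundant transcripts came from the mitochondrial genome, the sarcomere, the extracellular matrix and the translation machinery. Mt-co1, a catalytic subunit of cytochrome c oxidase, had 22141, 21729, 20395 and 20907 FPKM and alone took 4.16% of the summed FPKM. It stood above all other rows in every library. Mt-cyb followed at 6260 ± 296 FPKM, Mt-cox3 at 6131 ± 338 FPKM and Mt-co2 at 4138 ± 253 FPKM, and 7 of the 30 highest rows were mitochondrial.

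Among nuclear genes the translation elongation factor Eef1a1 was highest at 3398 ± 18.5 FPKM. The cardiac actin Actc1 came next with 3223, 3315, 3226 and 3329 FPKM, and the hormone precursor Nppa followed with 2747, 3158, 2872 and 2947 FPKM. The ranges of Actc1 and Nppa did not overlap. The matrix glycoprotein Sparc had 2875 ± 35.9 FPKM, and Col1a1, the alpha-1 chain of type I collagen, had 2015, 2007, 2192 and 2135 FPKM. Other secreted proteins among the 30 highest were Clu (clusterin) at 1631 ± 33.7 FPKM and Mgp (matrix Gla protein, an inhibitor of calcification) at 1286 ± 35.4 FPKM. The smooth muscle actin Acta2 had 2195 ± 22.9 FPKM and the actin-binding protein Tagln 1751 ± 28.6 FPKM. The sarcomeric genes Myl3 and Tnnt2 had 1467 ± 84.2 and 1447 ± 62.0 FPKM. Ifi27, an interferon-inducible gene, had 1367 ± 105 FPKM. The remaining rows of the 30 were housekeeping genes or genes of general use, among them Actb (2433 ± 123 FPKM), Gapdh (1905 ± 116 FPKM), Rplp0 (1885 ± 123 FPKM), Rps2 (1744 ± 120 FPKM), Tpt1 (1576 ± 58.3 FPKM), Tmsb4x (1514 ± 30.05 FPKM), Cd81 (1372 ± 54.1 FPKM), Ppia (1309 ± 62.4 FPKM), H3f3a (1300 ± 39.7 FPKM) and Rplp1 (1264 ± 57.4 FPKM).

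**Figure D1:**
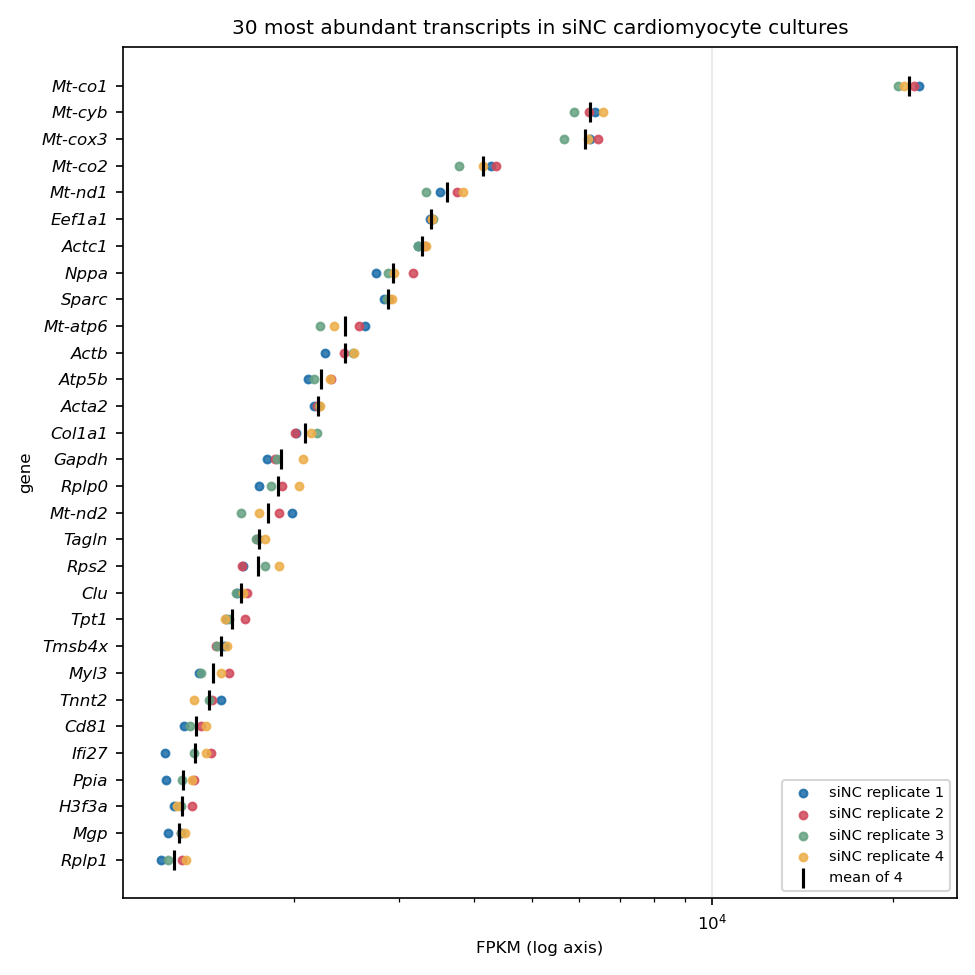
FPKM (log axis) of the 30 rows of highest mean in siNC cultures; each coloured point is 1 library and the black bar is the mean of 4. Mt-co1 stands apart at 21293 FPKM, while the lowest of the 30, Rplp1, had 1264 FPKM.

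The 100 highest rows together took 29.0 ± 0.425% of the summed FPKM and the 1000 highest took 62.4 ± 0.460%. Without mitochondrial rows, the 100 highest of the rest took 23.0 ± 0.431%. Protein-coding rows held 98.2% of the summed FPKM. Several abundant rows, among them Eef1a1, Gapdh, Rps2, Ppia, Tpt1 and H3f3a, have processed copies or rows with the same protein match, so their levels depend on how reads were assigned. Of the 287 genes named, 59 share a protein match with another row or overlap one.

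Myosin heavy chains set the contraction speed of heart muscle. Myh6 (chromosome 15, 33605654 to 33629699, minus strand, as the table lists it with no build named) had 920.8, 949.8, 965.6 and 956.2 FPKM. Myh7, its neighbour on the same strand (33634422 to 33656089), had 259.7, 266.8, 289.4 and 252.5 FPKM. The ranges were far apart, and Myh6 held 78.0%, 78.1%, 76.9% and 79.1% of the summed FPKM of the pair. The ratio of Myh6 to Myh7 was 3.56 ± 0.184. The fast myosin was thus the main chain in every control library, and the slow chain held 22.0% of the pair. The embryonic chain Myh3 had 4.11 ± 0.493 FPKM, Myh7b 1.24 ± 0.0887 FPKM, and the skeletal chains Myh2 and Myh8 0.382 ± 0.0493 and 0.0870 ± 0.0276 FPKM. The 2 other rows with the Myh6 protein match, AC115371.1 and AC130940.1, held 4 and 3 reads over the 4 libraries, against 398838 for Myh6 and 110372 for Myh7. Whether reads were shared between Myh6 and Myh7 themselves was not tested.

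Introns of these neighbouring genes carry a pair of heart microRNAs, miR-208a in Myh6 and miR-208b in Myh7. Their mature 3′ arms are shown because each precursor is transcribed with its host gene. Capitals mark the seed, bases 2 to 8, as given by RefSeq on GRCr8 (chr15:32395568-32395585 and chr15:32421648-32421665, minus strand).
rno-miR-208a-3p: aUAAGACGagcaaaaagc
rno-miR-208b-3p: aUAAGACGaacaaaaggu
The seed was the same in both. Counted from 1 at the 5′ end of miR-208a, they differed at 3 bases, G10A, A16G and C18U, all outside the seed. The row Mir208b, which counts fragments over the hairpin and not mature microRNA, had 0.490, 0.527, 0 and 1.02 FPKM, from 4 reads in all, so its level could not be set apart from single reads. A row for Mir208a is not analysed here.

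Troponin I was divided more evenly. The fetal form Tnni1 had 249.8, 261.4, 240.2 and 268.7 FPKM, and the cardiac form Tnni3 had 179.2, 190.4, 169.7 and 184.0 FPKM. Tnni1 was higher in every library and took 58.5 ± 0.639% of the pair, against 41.5% for Tnni3. The Tnni3 row overlaps Dnaaf3 in the table. Tnni2 of fast skeletal muscle had 0.0897 ± 0.0332 FPKM. Troponin T and troponin C each came from 1 gene: Tnnt2 had 1515, 1461, 1446 and 1365 FPKM, beside 1.30 ± 0.273 FPKM for Tnnt1 and 0.617 ± 0.233 FPKM for Tnnt3. Tnnc1 had 648 ± 37.9 FPKM, beside 0.518 ± 0.224 FPKM for Tnnc2.

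Among essential light chains, the ventricular Myl3 (1389, 1562, 1403 and 1513 FPKM) exceeded the atrial and fetal Myl4 (70.2, 81.1, 71.2 and 75.3 FPKM) 19.7 ± 0.346-fold. The regulatory chains showed the same order with less distance. The ventricular Myl2 had 197, 213, 222 and 184 FPKM and the atrial Myl7 71.1, 76.6, 71.0 and 75.8 FPKM, so that Myl2 took 73.4 ± 2.04% of the pair. Of the smooth muscle and non-muscle regulatory chains, Myl9 (941 ± 36.0 FPKM) and Myl12a (879 ± 56.0 FPKM) lay above both, with ranges that overlapped each other. Myl12b lay between Myl2 and Myl7 at 176 ± 2.86 FPKM. Myl6, the essential chain of non-muscle and smooth muscle myosin, had 579 ± 26.6 FPKM, Myl1 5.85 ± 0.808 FPKM and Mylpf 15.2 ± 1.01 FPKM.

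The sarcomeric actins were led by Actc1, which exceeded the skeletal Acta1 (560.4 ± 12.9 FPKM) 5.84 ± 0.0418-fold. The smooth muscle actin Acta2 reached 0.671 ± 0.0102 of the Actc1 level, and its 4 libraries lay between 2164 and 2216 FPKM. Actg1 had 168 ± 5.11 FPKM and Actg2 62.3 ± 2.33 FPKM. In the tropomyosin, myosin binding protein C and alpha-actinin families the leader held 45.6% (Tpm1), 88.5% (Mybpc3) and 51.8% (Actn2) of the summed FPKM. Tpm1 led the tropomyosins at 932 ± 20.3 FPKM before Tpm4 at 528 ± 27.0 FPKM. Mybpc3 had 153 ± 4.98 FPKM before Mybpc2 at 19.8 ± 0.413 FPKM. Actn2, the alpha-actinin of the Z-disc, had 503.9, 534.4, 514.0 and 532.7 FPKM, above the non-muscle Actn4 at 321 ± 6.18 FPKM. Among the heavy chains of smooth muscle and other cells, Myh10 led at 49.4 ± 3.11 FPKM before the smooth muscle chain Myh11 at 26.5 ± 1.52 FPKM. Myh9 itself had 0.0344 ± 0.0325 FPKM while the row Myh9l1, with the same protein match, had 8.95 ± 1.13 FPKM; Myh9l1 is named here after its value was seen.

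**Figure D2:**
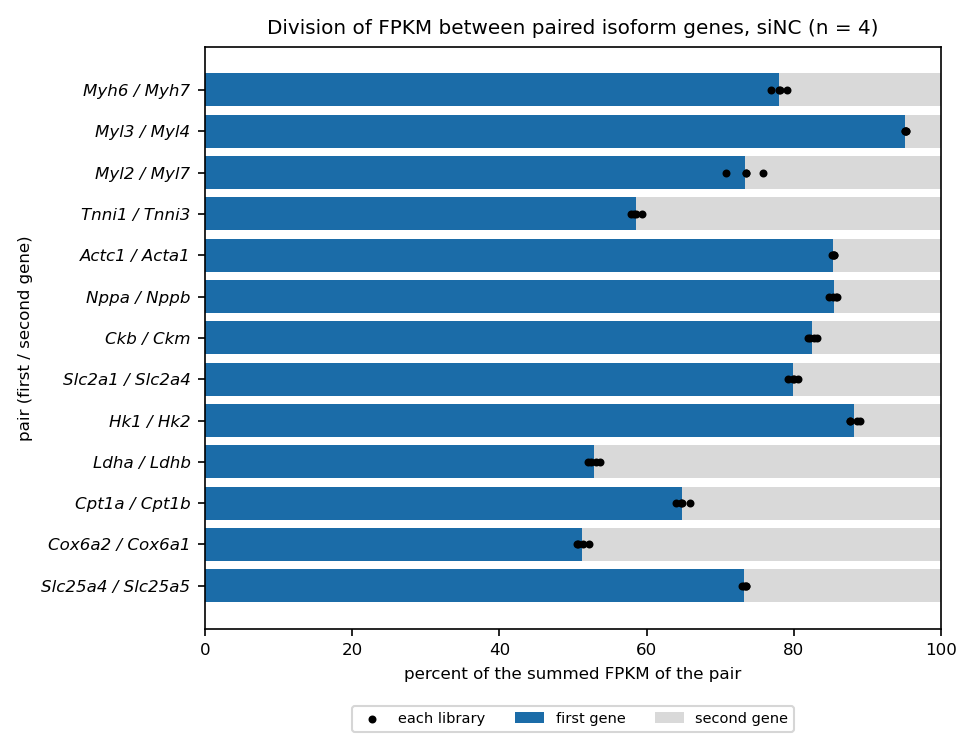
Percent of the summed FPKM of 2 paired genes held by the first gene (blue bar, mean of 4 siNC libraries) and the second (grey); black points are the 4 libraries. Myh6 held 78.0% beside Myh7, Tnni1 58.5% beside Tnni3, and Ldha 52.8% beside Ldhb.

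Across 48 families of related genes, the ranges of the first and second member did not overlap in 44 and overlapped in 4. In 11 the first member held at least 90% of the family's summed FPKM. Members were ranked by the means of these same libraries, and rows of at least 10 FPKM had a median SD over mean of 4.74%. How often ranges of other gene pairs overlap was not computed, so these counts are not a result about isoform choice. The 4 with overlap were the regulatory light chains (Myl9 and Myl12a), lactate dehydrogenase (Ldha and Ldhb), cytochrome oxidase subunit 6a (Cox6a2 and Cox6a1), and the muscarinic and adenosine receptors (Adora1 at 13.1 ± 1.05 and Chrm2 at 11.9 ± 0.664 FPKM).

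Calcium cycling between sarcoplasmic reticulum and cytosol triggers contraction. The calcium pump Atp2a2 had 611 ± 17.5 FPKM, beside 4.14 ± 0.887 FPKM for the skeletal pump Atp2a1. Its inhibitor phospholamban (Pln) had 369 ± 14.1 FPKM and the atrial inhibitor sarcolipin (Sln) 18.4 ± 3.44 FPKM. Casq2, the cardiac calcium-binding protein of the reticulum, had 243 ± 9.91 FPKM, above the skeletal Casq1 at 111 ± 6.83 FPKM. The release channel Ryr2 had 23.8 ± 1.48 FPKM and Itpr1, an IP3 receptor, 15.2 ± 1.04 FPKM.

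Both natriuretic peptide precursors were high, and Nppa exceeded Nppb (494, 525, 496 and 484 FPKM) 5.86 ± 0.240-fold. These hormones are made by atria and by fetal ventricle. Nppa was highest in siNC replicate 2 and lowest in siNC replicate 1. Gja1, the main ventricular connexin, had 120.1 ± 4.36 FPKM, before Gjc1 at 18.3 ± 1.86 FPKM.

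Ion channel transcripts were scarcer than the contractile ones. Among calcium channel subunits the T-type Cacna1g led at 19.3 ± 0.884 FPKM, followed by the T-type Cacna1h at 12.3 ± 0.333 FPKM. The L-type Cacna1c, next in its family and named after its value was seen, had 12.2 ± 0.405 FPKM. The pacemaker channels Hcn4 and Hcn2 had 19.6 ± 1.29 and 15.1 ± 1.53 FPKM. The potassium channels that led their families were Kcnh2 (15.7 ± 0.552 FPKM), before Kcnq1 (14.1 ± 0.351 FPKM), and Kcnj5 (11.8 ± 0.649 FPKM), before Kcnj8 (8.35 ± 0.792 FPKM).

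Receptor genes covered a wide range. The beta-1 adrenergic receptor Adrb1 had 14.6 ± 2.38 FPKM and Adra1d 9.74 ± 1.03 FPKM. Agtr1a, an angiotensin II receptor, had 17.4 ± 1.23 FPKM and the endothelin receptor Ednra 14.7 ± 0.507 FPKM. Among growth factor receptors Igf2r led at 227 ± 9.19 FPKM before Pdgfrb at 116 ± 5.65 FPKM. Of the nuclear receptors, the glucocorticoid receptor Nr3c1 led at 38.3 ± 3.18 FPKM over 2 rows, before the thyroid hormone receptor Thra at 24.5 ± 0.249 FPKM.

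Genes of glucose use were abundant throughout. All 18 genes of the glycolysis list reached 10 FPKM and 11 reached 100 FPKM, against 32.3% and 4.02% of all gene rows. Their median was 249 FPKM. Gapdh, Aldoa (991 ± 52.9 FPKM) and Ldha had the highest means. The muscle forms Eno3 (12.9 ± 0.630 FPKM) and Pgam2 (20.3 ± 1.58 FPKM) had the lowest, although the range of Pgam2 overlapped that of Aldoc. Both lay below the widely expressed Eno1 (637 ± 29.5 FPKM) and Pgam1 (397 ± 9.10 FPKM).

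Several steps with an isoform for fetal or general use and another for adult muscle were led by the general form. RNA came from the whole culture, so which cells made each form, here and in the pairs below, was not tested. The basal glucose transporter Slc2a1 had 71.6, 76.7, 71.8 and 76.2 FPKM and the insulin-responsive Slc2a4 17.3, 19.4, 17.998 and 20.1 FPKM, a ratio of 3.97 ± 0.140. Hexokinase Hk1 (155 ± 3.70 FPKM) exceeded Hk2 (20.6 ± 1.17 FPKM) 7.53 ± 0.527-fold. The brain-type creatine kinase Ckb had 332 ± 24.4 FPKM against 70.4 ± 5.40 FPKM for the muscle form Ckm, and the mitochondrial Ckmt2 0.522 ± 0.177 FPKM. Phosphofructokinase was led by the platelet form Pfkp at 129.5 ± 3.09 FPKM before the muscle form Pfkm at 73.1 ± 1.89 FPKM. Each of these pairs was apart in every library.

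Other steps were shared or led by the muscle form. Ldha, which favours lactate formation, had 682, 773, 727 and 745 FPKM, and Ldhb, the form typical of heart, had 619, 682, 626 and 685 FPKM. Their ranges overlapped, although Ldha took more than its partner within each library, 52.1% to 53.7% of the pair. Cox6a2, the heart and muscle form of a cytochrome oxidase subunit, had 973, 1059.5, 1002.5 and 1046 FPKM. The widely expressed Cox6a1 had 949, 969.6, 949 and 1023 FPKM, so the pair was nearly even at 51.2 ± 0.773% for Cox6a2. The heart-type adenine nucleotide translocase Slc25a4 (825 ± 18.6 FPKM) exceeded Slc25a5 (301 ± 8.71 FPKM) 2.74 ± 0.0392-fold. Pyruvate kinase was almost wholly Pkm, at 561 ± 23.3 FPKM over 2 rows, of which the row on chromosome 8 held 525 ± 22.7 FPKM.

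Fatty acid genes were present at moderate levels. All 14 genes of mitochondrial beta-oxidation reached 10 FPKM, against 32.3% of all gene rows, and their median was 63.6 FPKM. Hadhb and Hadha, the subunits of the trifunctional protein, had 191 ± 8.43 and 127 ± 4.23 FPKM, and the long-chain dehydrogenase Acadl had 140.1 ± 3.06 FPKM. Hadh and Eci2 had the lowest means at 34.8 ± 0.698 and 44.8 ± 1.56 FPKM, with the range of Eci2 overlapping that of Decr1. Entry of fatty acids into mitochondria was led by Cpt1a, the form of liver and fetal heart, with 46.4, 48.6, 48.8 and 48.6 FPKM. The muscle form Cpt1b had 25.4, 27.4, 25.2 and 26.4 FPKM, so Cpt1a took 64.8 ± 0.800% of the pair. The Cpt1b row overlaps Chkb.

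In the carnitine shuttle Crat (77.9 ± 2.98 FPKM) and Slc25a20 (56.9 ± 1.23 FPKM) were highest and the carnitine transporter Slc22a5 lowest at 0.329 ± 0.209 FPKM. The cytosolic carrier Fabp3 had 372 ± 14.5 FPKM and lipoprotein lipase (Lpl) 116 ± 3.79 FPKM, whereas the fatty acid receptor Cd36 had 1.02 ± 0.113 FPKM. Cd36 shares its protein match with 2 further rows, which held 3 and 0 reads. Of regulators of this programme, the orphan receptor Esrra led at 49.4 ± 1.11 FPKM before Ppard at 13.8 ± 0.442 FPKM. The coactivator Pprc1 had 14.9 ± 0.389 FPKM before Ppargc1b at 6.03 ± 0.557 FPKM.

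Genes of pyruvate entry had a median of 65.1 FPKM, with the carriers Mpc2 (153 ± 8.62 FPKM) and Mpc1 (149.7 ± 12.2 FPKM) on top and the phosphatase Pdp1 (16.9 ± 1.45 FPKM) and pyruvate carboxylase Pc (17.4 ± 0.852 FPKM) lowest. Of the kinases that inhibit pyruvate dehydrogenase, Pdk2 led at 58.3 ± 5.08 FPKM before Pdk1 at 22.9 ± 0.302 FPKM. Citric acid cycle genes had a median of 181 FPKM over 15 genes. Mdh2 led at 427 ± 18.1 FPKM, followed by Sdhc at 257 ± 6.57 FPKM and citrate synthase Cs at 240.4 ± 6.92 FPKM. The succinyl-CoA ligase subunits Sucla2 (47.4 ± 2.89 FPKM) and Suclg2 (76.1 ± 1.01 FPKM) were lowest. Idh3b and Ogdh are not analysed here.

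Respiratory chain genes were abundant. The median of nuclear subunits was 95.0 FPKM in complex I, 203 FPKM in complex III, 513 FPKM in complex IV and 335 FPKM in ATP synthase. Atp5b, the catalytic beta subunit of ATP synthase, had 2224 ± 97.4 FPKM. In complex I, Ndufb8 and Ndufb9 had 324 ± 14.5 and 272 ± 8.52 FPKM. In complex III, Uqcrfs1 and Cyc1 had 383 ± 13.5 and 352 ± 9.06 FPKM. The 13 mitochondrially encoded protein genes took 9.33 ± 0.404% of the summed FPKM and between 5.40% and 5.94% of the reads of a library fell on mitochondrial rows. Their listed levels differed widely, with Mt-nd4 at 71.8 ± 12.6 FPKM in a row that overlaps Mt-nd4l (226 ± 32.0 FPKM). Mt-atp8 (7758 to 7961), which overlaps Mt-atp6 (7919 to 8599) over part of its span only, was read once in all. How reads were divided between neighbouring mitochondrial rows is not known here, so these values may not be differences in transcript level.

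A few subunits were listed at or near 0. Cox7a1, the heart and muscle form of subunit 7a, was at 0 in all 4 libraries, where 3 reads over the libraries would have given 0.177 FPKM. The general form Cox7a2 had 101 ± 2.26 FPKM. Ndufa1 and Atp5f1, subunits in general use, had 0.198 ± 0.0447 and 1.67 ± 0.638 FPKM. The rows that share their protein matches were low too: LOC687508 (Cox7a1) held 8 reads over the 4 libraries, LOC108348144 (Ndufa1) 16 and LOC100911417 (Atp5f1) 87. These values are given as listed. Myoglobin (Mb) had 21.3 ± 0.728 FPKM.

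Smaller fuel pathways lay between these extremes. Branched-chain amino acid catabolism had a median of 32.9 FPKM over 16 genes, led by Hibadh (79.9 ± 1.96 FPKM), with Acadsb (2.92 ± 0.410 FPKM) lowest. For ketone use the median was 29.9 FPKM. Oxct1, which activates ketone bodies outside the liver, had 89.0 ± 5.15 FPKM. Lipid synthesis was led by the desaturase Scd2 at 217 ± 7.16 FPKM, and Scd had 3.76 ± 0.332 FPKM. Glycogen genes were led by glycogenin Gyg1 (183 ± 7.97 FPKM) and the muscle phosphorylase Pygm (91.6 ± 3.04 FPKM), with the liver phosphorylase Pygl lowest at 9.76 ± 0.895 FPKM.

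**Figure D3:**
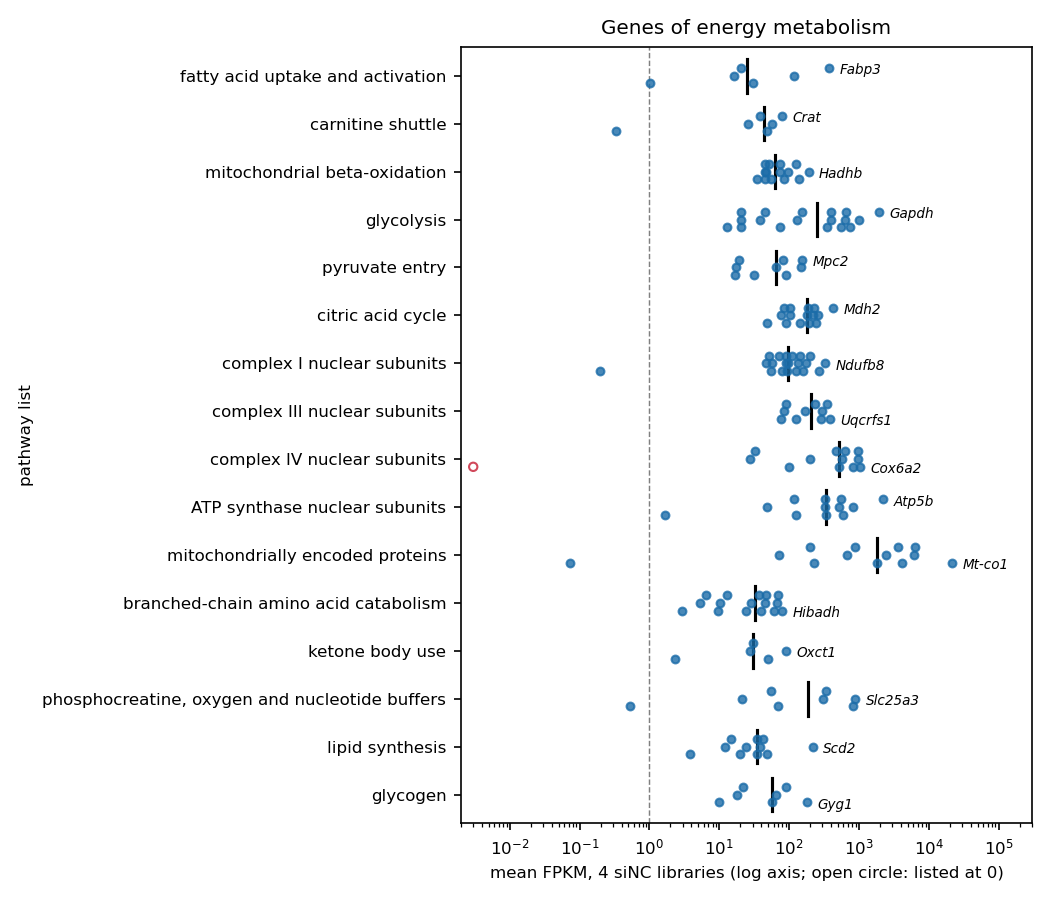
Mean FPKM over 4 siNC libraries (log axis) of every measured gene in 16 lists of energy metabolism; points are genes, black bars list medians, the dashed line is 1 FPKM, and the highest gene is named. The median of glycolysis was 249 FPKM and that of mitochondrial beta-oxidation 63.6 FPKM.

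Markers of cardiomyocytes and of fibroblasts were high, and the smooth muscle list held a few very abundant genes beside low ones. In RNA from a whole culture, more cells of a type and more RNA per cell cannot be told apart, so these levels are not cell shares. Of 11 cardiomyocyte markers in the table, 10 reached 10 FPKM, led by Tnnt2, Myh6 and Actn2, and their summed level was 4187 ± 49.6 FPKM. The exception was Ckmt2, given above. Of all gene rows, 32.3% reached 10 FPKM. The giant sarcomere protein titin is not analysed here under its own symbol.

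All 11 fibroblast markers reached 10 FPKM, with a summed level of 4700 ± 102 FPKM. This was above the cardiomyocyte sum in every library, but without the highest gene of each list the fibroblast sum was 2612 FPKM and the cardiomyocyte sum 2739.9 FPKM. Col1a1 exceeded Myh6 2.20 ± 0.0673-fold, and its range of 2007 to 2192 FPKM lay wholly above that of Myh6. The intermediate filament vimentin (Vim, 911 ± 17.7 FPKM) and fibronectin (Fn1, 832 ± 20.03 FPKM), both made by many mesenchymal cells, followed. The receptor Pdgfra and the transcription factor Tcf21, narrower fibroblast markers, were the lowest at 15.2 ± 0.560 and 21.3 ± 0.719 FPKM. Smooth muscle and pericyte markers summed to 5421 ± 88.5 FPKM, mostly from Acta2, Tagln and Des (1006 ± 48.8 FPKM). Of its 12 genes, 10 reached 10 FPKM and 5 reached 100 FPKM, and the list median was 30.9 FPKM, against 191 FPKM for cardiomyocyte and 84.97 FPKM for fibroblast markers. Acta2 and Tagln are also made by immature cardiomyocytes and activated fibroblasts, and desmin by all heart muscle. The lowest of this list were Kcnj8 (8.35 ± 0.792 FPKM) and Abcc9 (9.75 ± 0.919 FPKM).

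Endothelial and leukocyte transcripts were scarce beside these. The 10 endothelial markers in the table summed to 50.2 ± 2.12 FPKM, with Egfl7 at 11.1 ± 0.900 FPKM, the adhesion molecule Cdh5 at 9.95 ± 1.05 FPKM and Esam at 7.27 ± 0.411 FPKM, and Sox17 and Erg lowest at 0.653 ± 0.0691 and 0.806 ± 0.288 FPKM. Cdh5 stood at 0.00477 ± 0.000506 of the Col1a1 level. Pecam1 is not analysed here. Lymphatic markers summed to 51.2 ± 2.09 FPKM, of which Pdpn, also a marker of epicardium and fibroblasts, gave 40.1 ± 2.01 FPKM.

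The macrophage list was split. Cd68 had 9.15, 8.79, 8.59 and 8.998 FPKM, Csf1r 9.12 ± 0.421 FPKM and Cd14 9.54 ± 0.459 FPKM, all steady over the 4 libraries. The lowest of the list were near 0: Cd163 was read once in all and C1qc was listed at 0, where 3 reads over the libraries would have given 0.0394 FPKM. Of 12 macrophage markers, 5 reached 1 FPKM, against 60.2% of all gene rows, and the list summed to 33.9 ± 0.475 FPKM. None of the 7 T and B lymphocyte markers in the table reached 1 FPKM. Cd8a and Cd4 were highest at 0.629 ± 0.214 and 0.410 ± 0.190 FPKM.

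Among neutrophil and mast cell markers only the receptor Kit passed 1 FPKM, at 6.37 ± 0.303 FPKM. Of erythroid and platelet markers, Pf4 had 10.4 ± 2.47 FPKM, Hba-a2 1.90 ± 0.594 FPKM and Slc4a1 1.13 ± 0.146 FPKM, while Hbb and Ppbp were read once each. Epicardial and mesothelial markers summed to 98.5 ± 2.83 FPKM, led by Upk1b (21.4 ± 0.652 FPKM), Aldh1a2 (17.6 ± 0.979 FPKM) and Krt18 (17.4 ± 1.31 FPKM). This list was split too: 4 of its 10 genes reached 10 FPKM and its median was 8.56 FPKM. Upk3b and Msln were lowest at 0.218 ± 0.150 and 1.08 ± 0.114 FPKM. The adhesion molecule Ncam1, which muscle cells also make, led the Schwann and neural list at 75.2 ± 3.42 FPKM, before Tubb3 at 9.02 ± 0.213 FPKM and S100b at 7.15 ± 0.286 FPKM. The other members of that list in the table stayed under 1 FPKM. Of adipocyte markers Fabp4, also an endothelial gene, had 10.5 ± 1.13 FPKM and the other 5 were under 1 FPKM. Genes of liver, skeletal muscle, lung, brain, pancreas and epidermis summed to 2.65 ± 0.0956 FPKM.

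**Figure D4:**
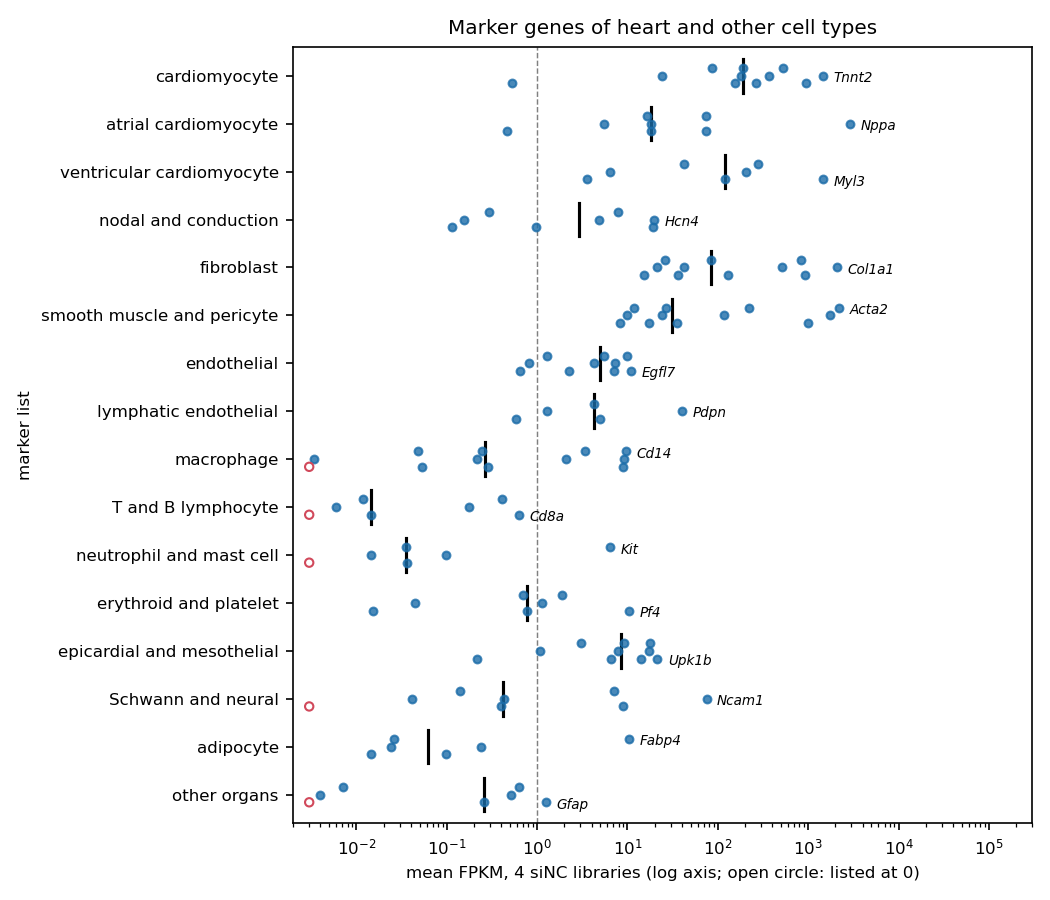
Mean FPKM over 4 siNC libraries (log axis) of marker genes of 16 cell types; points are genes, open red circles genes listed at 0, black bars list medians, the dashed line is 1 FPKM, and the highest gene is named. Cardiomyocyte, fibroblast and smooth muscle lists reach above 1000 FPKM, and no T or B lymphocyte marker reaches 1 FPKM.

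Genes listed for both chambers were present, with a median of 18.3 FPKM in the atrial list and 120 FPKM in the ventricular list. The atrial list summed to 3138 ± 176 FPKM, nearly all of it Nppa, followed by Myl4 and Myl7. Nppa is also made by fetal ventricle and Myl4 is also a fetal form, so this sum is no measure of atrial cells. Its lowest members were the potassium channel Kcna5 at 0.460 ± 0.0967 FPKM and Stard10 at 5.53 ± 0.533 FPKM. The ventricular list summed to 2124 ± 80.5 FPKM and was led by Myl3, before Fhl2 (281 ± 1.45 FPKM) and Myl2, with Kcnj2 (3.61 ± 0.645 FPKM) and Hey2 (6.46 ± 0.545 FPKM) lowest. Nodal and conduction markers summed to 53.2 ± 1.98 FPKM. Hcn4, Cacna1g and Tbx18 (7.93 ± 0.576 FPKM) gave most of it, and Isl1 had 0.154 ± 0.119 FPKM.

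Of 21 cardiac transcription factors, 20 reached 1 FPKM and 13 reached 10 FPKM, against 60.2% and 32.3% of all gene rows. The list median was 14.1 FPKM, and 1 gene reached 100 FPKM. Gata4, a zinc finger factor of cardiac specification, led with 131, 132, 132 and 144 FPKM. The homeobox factor Nkx2-5 followed at 85.1 ± 25.5 FPKM and differed between libraries, which are given one by one with the most variable genes. Srf had 46.7 ± 1.41 FPKM. Isl1 was lowest at 0.154 ± 0.119 FPKM.

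Cell cycle genes were mostly present at moderate levels. The cell cycle inhibitor Cdkn1a led with 209, 221, 208 and 229.8 FPKM, above the cyclins Ccnd2 (81.6 ± 6.23 FPKM) and Ccnd1 (63.8 ± 2.02 FPKM). The mitotic genes Cenpf and Bub1 were lowest at 0.426 ± 0.0714 and 2.57 ± 0.305 FPKM. Of immediate early genes, Junb, Egr1 and Jun had 68.9 ± 5.48, 45.2 ± 3.51 and 44.4 ± 1.21 FPKM, and Fosb and Egr3 1.70 ± 0.284 and 2.28 ± 0.147 FPKM.

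Interferon response genes were expressed in every control library. Of 12 listed, 11 reached 1 FPKM and 10 reached 10 FPKM, against 60.2% and 32.3% of all gene rows. The regulator Irf7 had 329, 368, 399.7 and 373 FPKM, the ubiquitin-like modifier Isg15 109 ± 10.001 FPKM and the GTPase Mx2 74.0 ± 8.78 FPKM. Ifit2 was second lowest at 4.11 ± 0.393 FPKM. The interferon gene Ifnb1 itself was lowest at 0.0509 FPKM, from 2 reads over the 4 libraries. The Irf7 row overlaps Phrf1.

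Transcripts of the Y chromosome were present: Eif2s3y had 7.04 ± 1.01 FPKM and Kdm5d 2.72 ± 0.334 FPKM, and 4 of 15 Y-linked rows reached 1 FPKM. The row Ddx3, listed on the Y chromosome, had 2.49 ± 0.417 FPKM from 930 reads. A separate row named Ddx3y, not listed on that chromosome, had 0.879 ± 0.191 FPKM, and Usp9y was listed at 0. The short row XIST_intron, on the X chromosome, had 48.4, 29.5, 32.6 and 26.9 FPKM from 164 reads, and it overlaps LOC680227.

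Some microRNA hairpins gave reads although the libraries were not made for small RNA. Of 111 rows with a Mir symbol, 33 reached 1 FPKM and 12 reached 5 FPKM, of which 11 matched a RefSeq microRNA. The highest was Mir675, which lies within the imprinted H19 transcript, with 143.6, 106.0, 104.1 and 126.1 FPKM from 706 reads. Mir22 had 57.1, 60.8, 50.9 and 51.8 FPKM and Mir21, a microRNA known for its part in cardiac fibrosis, 6.56, 8.98, 11.4 and 4.36 FPKM from 50 reads. These rows measure longer transcripts that span the hairpin, not the mature strands, and with such short spans a few reads make a visible level. The mature strands of the 2 highest rows and of Mir21 are shown, since they name which microRNA each row could give, with the seed in capitals.
rno-miR-675-5p: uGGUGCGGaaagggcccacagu
rno-miR-22-3p: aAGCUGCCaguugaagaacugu
rno-miR-21-5p: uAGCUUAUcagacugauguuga
No seed was shared among these 3, and none matched that of miR-208.

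The 4 control libraries agreed closely for most genes. The median coefficient of variation (SD over mean) was 6.48% over rows of at least 1 FPKM and 4.74% over the 6783 rows of at least 10 FPKM. Once counting error was taken off, the median over the latter rows was 3.49%. Spread fell with level up to 1000 FPKM, with a median of 12.3% between 1 and 5 FPKM and 3.60% between 100 and 1000 FPKM. Over the 43 rows of at least 1000 FPKM it was 4.42%. Only 70 rows (1.03%) of at least 10 FPKM varied by 20% or more, and 91.4% varied by less than 10%.

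Of the 10 named genes with the largest spread beyond counting error, several were low in siNC replicate 2 alone. Scand1 had 114, 46.7, 113 and 122 FPKM, and Nkx2-5 had 96.2, 46.9, 99.4 and 97.9 FPKM. In both, replicate 2 lay at less than 0.5 of the level in any of the other 3 libraries, which agreed among themselves. Mxra7 had 44.4, 19.2, 50.9 and 40.6 FPKM, Gas1, a growth arrest gene, 25.6, 13.2, 32.7 and 25.8 FPKM, and Marcksl1 46.1, 25.6, 52.7 and 52.0 FPKM. Fam185a was also lowest in replicate 2, at 6.40 FPKM against 11.5 to 14.9 FPKM in the others.

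Other genes spread over all 4 libraries. The linker histone H1fx had 76.3, 54.6, 109 and 62.4 FPKM and Bri3 61.5, 43.3, 89.6 and 56.6 FPKM, with replicate 3 highest in each. The row Rps21-ps1 had 11.8, 18.9, 37.7 and 33.7 FPKM. A second row named Rps27a, on chromosome 5, had 79.9, 185, 133 and 141 FPKM, and it shares its protein match with 2 other rows. Over the 100 rows of largest spread, siNC replicate 2 was lowest in 47, against 14, 24 and 15 for replicates 1, 3 and 4, and replicate 1 was highest in 37, against 11, 30 and 22 for replicates 2, 3 and 4. Over all 6783 rows, replicate 2 was lowest in 20.8% and replicate 1 highest in 26.6%. Of the 6783 rows, 27 had replicate 2 at least 1.5-fold below the mean of the others. The same count was 6, 7 and 8 rows for replicates 1, 3 and 4. Its recovered total of reads was the lowest of the 4, and its mitochondrial share (5.89%) lay within the range of the others. Their part in these differences was not tested.

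**Figure D5:**
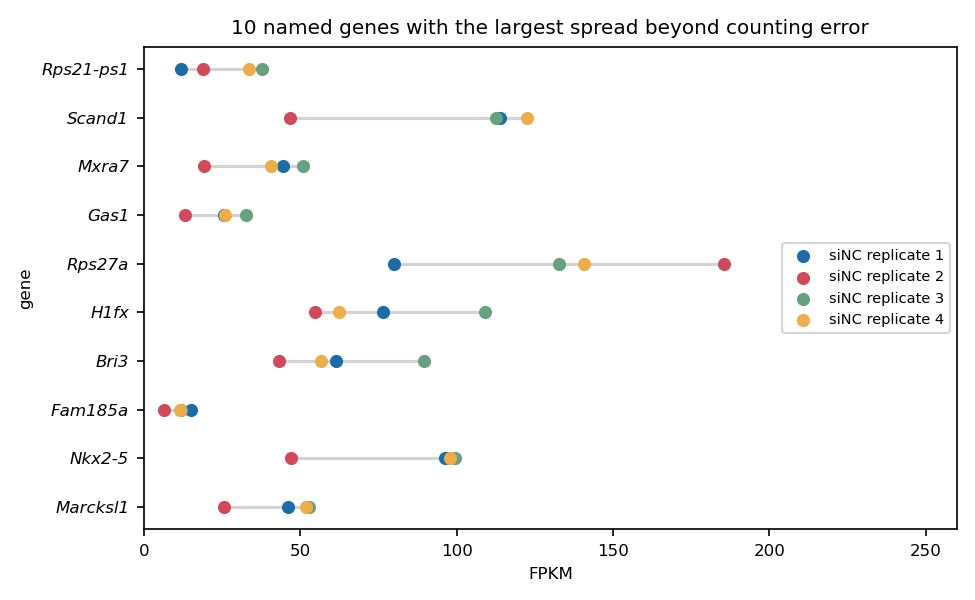
FPKM of the 10 named genes with the largest spread beyond counting error, 1 point per siNC library and a grey line over the range. Replicate 2 (red) is the lowest point for Scand1, Mxra7, Gas1, H1fx, Bri3, Fam185a, Nkx2-5 and Marcksl1, and the highest for Rps27a.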

How the data were processed

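Per the labels' protocols, the TruSeq RNA kit, which is unstranded, was used on 1 µg of total RNA. The values are FPKM per gene, as deposited, and only the siNC columns are described. The submitters' processing notes name Bowtie 0.12.2 and the builds Rnor_6.0 and mm8 without saying what each served for. The sources used here do not give the counter, the annotation release or the rule for reads with several matches, so rows that overlap or share a protein match may share reads.

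Low FPKM values step in whole reads. Gene lengths, a constant of the annotation, were recovered from these steps over all 8 columns, and library totals and reads followed. All values (100%) were whole within 0.01 of a read, which is no check, since lengths were chosen to make them whole. The smallest length that fitted was kept, so lengths and reads of rows with few reads can be too low. On simulated data every read number was exact for 99.5% of 19863 rows. The reads served to state the totals behind the FPKM values and the counting error. An extra coefficient of variation of 40% given to 200 simulated rows came back as 38.0%.

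Means, SDs and ranges over the 4 siNC libraries were computed with Python 3.11.15, pandas 2.3.3 and numpy 2.4.6, and plots with matplotlib 3.10.9. There was no filter beyond the minimum named beside each count. Where a symbol had several rows, these were summed in lists. Excess spread is the coefficient of variation after subtracting counting variance. The genes named are the 30 highest rows, the first and second of each family with all members of the striated myosin, light chain, troponin and actin families, the 3 highest and 2 lowest of each list, 6 markers given at the outset, and the 10 rows with a symbol, of at least 10 FPKM, with the largest excess spread. A few genes that meet this rule are not reported here. Members and 85 lists (539 symbols, 513 with a row) were chosen with earlier results of these data known. MicroRNA sequences are RefSeq's, on GRCr8. Alternatives were other minimums, scalings and denominators, and leaving out each replicate.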

Additional observations from a re-analysis of the deposited data

Results flagged for a closer look

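Of 306 values examined over the 4 siNC libraries, 23 had 1 library whose gap to the nearest other exceeded Dixon's 95% limit for 4 samples. For values with a normal spread, chance alone flags about 1 in 20. The values examined include the 10 genes chosen for their large spread, Nkx2-5 and Scand1 among them, for which that rate does not hold. Nor does it hold for genes of very few reads, where a single read in 1 library sets the gap. The number flagged can therefore not be set against that rate. Replicate 1 was the library that stood apart in 6, replicate 2 in 9, replicate 3 in 2 and replicate 4 in 6.

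The largest gaps among expressed genes were the low values of siNC replicate 2 for Nkx2-5 (46.9 FPKM, against 96.2 to 99.4 FPKM in the others) and Scand1 (46.7 FPKM, against 113 to 122 FPKM). Replicate 2 was also apart for Atp5c1 (50.9 FPKM, others 46.4 to 47.2), Hibadh (82.9 FPKM, others 78.8 to 79.2) and Slc27a4 (15.4 FPKM, others 16.5 to 16.6). Replicate 4 was higher for the transcription factor Gata4 (144 FPKM, others 131 to 132), Fhl2 (282.8 FPKM, others 279.7 to 280.1) and pyruvate carboxylase Pc (18.7 FPKM, others 16.9 to 17.1). In the same library the summed FPKM of nodal and conduction markers was 56.2 (others 52.1 to 52.6) and that of epicardial and mesothelial markers 103 (others 96.7 to 97.4). Replicate 1 was lower for Cpt1a (46.4 FPKM, others 48.6 to 48.8) and Gys1 (62.1 FPKM, others 65.2 to 65.8) and higher for Cox7b (29.5 FPKM, others 26.5 to 26.8). Apart from Nkx2-5 and Scand1, these gaps were small beside the level itself.

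The remaining values rest on 1 to 3 reads over the 4 libraries and come from a single read falling in 1 library, or missing from 1. They were 0.0137 FPKM for Cd163 and 0.0973 FPKM for Ucp1 in replicate 3. Replicate 2 had 0.179 FPKM for Hbb, 0.289 FPKM for Mt-atp8 and 0.0115 FPKM for Pklr, and 0 FPKM for Mpo. Replicate 1 had 0.0160 FPKM for Neurod1, 0.0603 FPKM for Ppbp and 0.145 FPKM for S100a8, and replicate 4 had 0 FPKM for Plin1.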

How the results depend on the processing

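No paired analysis was possible because only the siNC group was described, with no second group to pair it with. Of 55 recomputed summary values, 46 stayed within the spread between libraries (counts and the median spread within 1.5 times), and 9 moved. The share of summed FPKM in the 100 highest genes was 23.0% without mitochondrial rows and 23.9% of recovered reads, which are not divided by length. On the same reads, mitochondrially encoded proteins took 5.65%. Rescaled to TPM, a change of unit, the summed level of the cardiomyocyte markers was 8181, of the fibroblast markers 9183 and of the macrophage markers 66.3. Without its highest member, each sum was 2739.9, 2612 and 24.4 FPKM, so the cardiomyocyte sum was then above the fibroblast sum, the reverse of the order with all members. Leaving out each replicate kept the Myh6 share of the pair between 77.7% and 78.4% and the median coefficient of variation between 5.56% and 6.39%. Median-of-ratios scaling kept all 287 named genes within 1 SD. Depth limits genes of few reads, 17 listed genes having 1 to 3, and intervals for them would cover counting error only.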
